A study of Mus musculus with 6 samples.

Results

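Of the 50385 genes in the deposited matrix, 9 encode the troponin and tropomyosin subunits described here. They were picked by symbol, under a rule that uses no measured value. The adult cardiac troponins are Tnnt2 (ENSMUSG00000026414), Tnni3 (ENSMUSG00000035458) and Tnnc1 (ENSMUSG00000091898), and the slow skeletal isoforms are Tnnt1 (ENSMUSG00000064179) and Tnni1 (ENSMUSG00000026418). The tropomyosins are Tpm1 (ENSMUSG00000032366), Tpm2 (ENSMUSG00000028464), Tpm3 (ENSMUSG00000027940) and Tpm4 (ENSMUSG00000031799). Every library came from heart tissue of male Mdx/Utrn dKO mice, which lack dystrophin and its relative utrophin and serve as a model of Duchenne muscular dystrophy. The vehicle group (3 libraries) received corn oil, and the setanaxib group (3 libraries) received the Nox4 inhibitor setanaxib, 60 mg/kg each day, both by oral gavage over 12 weeks from an age of 2 to 3 months. No heart without the mutations and no untreated heart is among the samples, the labels do not say which chambers were taken, and they do not say in words that each library is a separate animal. Each library's title carries a number of its own, which the labels do not explain. The p-values therefore rest on the spread among libraries, which exceeded sampling noise but may not be that among animals.

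Tropomyosin is a coiled-coil dimer that lies along the actin filament and covers the sites where myosin heads bind. Troponin sits on tropomyosin as a complex of troponin C, which binds calcium, troponin I, which holds the filament off at low calcium, and troponin T, which anchors the complex to tropomyosin. In the adult mouse ventricle the complex is built from Tnnc1, Tnni3 and Tnnt2 on tropomyosin from Tpm1. Tnni1 is the troponin I of the fetal heart and, with Tnnt1, of slow skeletal fibres. Tpm2 is common in skeletal and smooth muscle, and Tpm3 and Tpm4 give cytoskeletal tropomyosins in most cells, Tpm3 also one of slow muscle fibres.

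Libraries held 110803307 to 154003318 estimated counts, of which the 9 members took 0.636% to 0.743%. Levels are given as CPM, estimated counts on a common library size set by TMM, the trimmed mean of M values. Setanaxib replicate 3 stood apart in several measures: its 5 atrial markers found in the file (of 7 listed) summed to 3365 CPM, while the other 5 ranged from 141 to 657 CPM, its share of mitochondrial counts was the lowest (20.5%, with 30.0% the highest), and its ventricular and general heart muscle markers summed to 40480 CPM, with 51220 to 58840 CPM elsewhere. Skeletal muscle markers summed to at most 0.707 CPM in any library, and 7 of 11 were at 0 in all (Tnnc2, Myh1, Myh2, Myh4, Mybpc1, Myod1 and Myf6). Summed levels with vehicle and with setanaxib were 244 to 359 and 226 to 330 CPM for smooth muscle markers, 1062 to 1415 and 624 to 1055 for fibroblasts, 309 to 400 and 198 to 251 for macrophages, 605 to 693 and 489 to 601 for endothelium, and 2763 to 5239 and 3299 to 4843 for red blood cells. Dmd and Utrn read 108 to 178 and 60.8 to 106 CPM over the 6 libraries, which does not check the genotype, because whole-gene counts include reads outside the mutated part.

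The heart troponins and Tpm1 were abundant, and no member differed between vehicle and setanaxib past the threshold. All 9 members passed the filter on low counts. By edgeR's quasi-likelihood test, with p-values adjusted by Benjamini-Hochberg over 20472 genes and a threshold of 0.05, 0 of 9 were called (0.00488% of all genes tested were called). DESeq2 and limma-voom also called 0 of 9, against 2.43% and 0% of all genes. At an unadjusted edgeR p under 0.05 there was 1 member, Tpm4, which was lower with setanaxib (8.46% of all genes passed, 4.69% lower and 3.76% higher), and the same number of members passed by DESeq2 and by limma-voom. The 2 groups did not overlap for 1 member, Tnnc1, also lower (17.6% of all genes, 9.46% lower and 8.11% higher). Fold changes were below 0 for 5 members and above 0 for 4, with a median log2 fold change of -0.01, beside 0.01 over all genes tested, 48.4% of which were below 0. In bulk tissue, fewer cells of a type and less RNA per cell cannot be told apart, which holds for every difference given here.

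**Figure D1:**
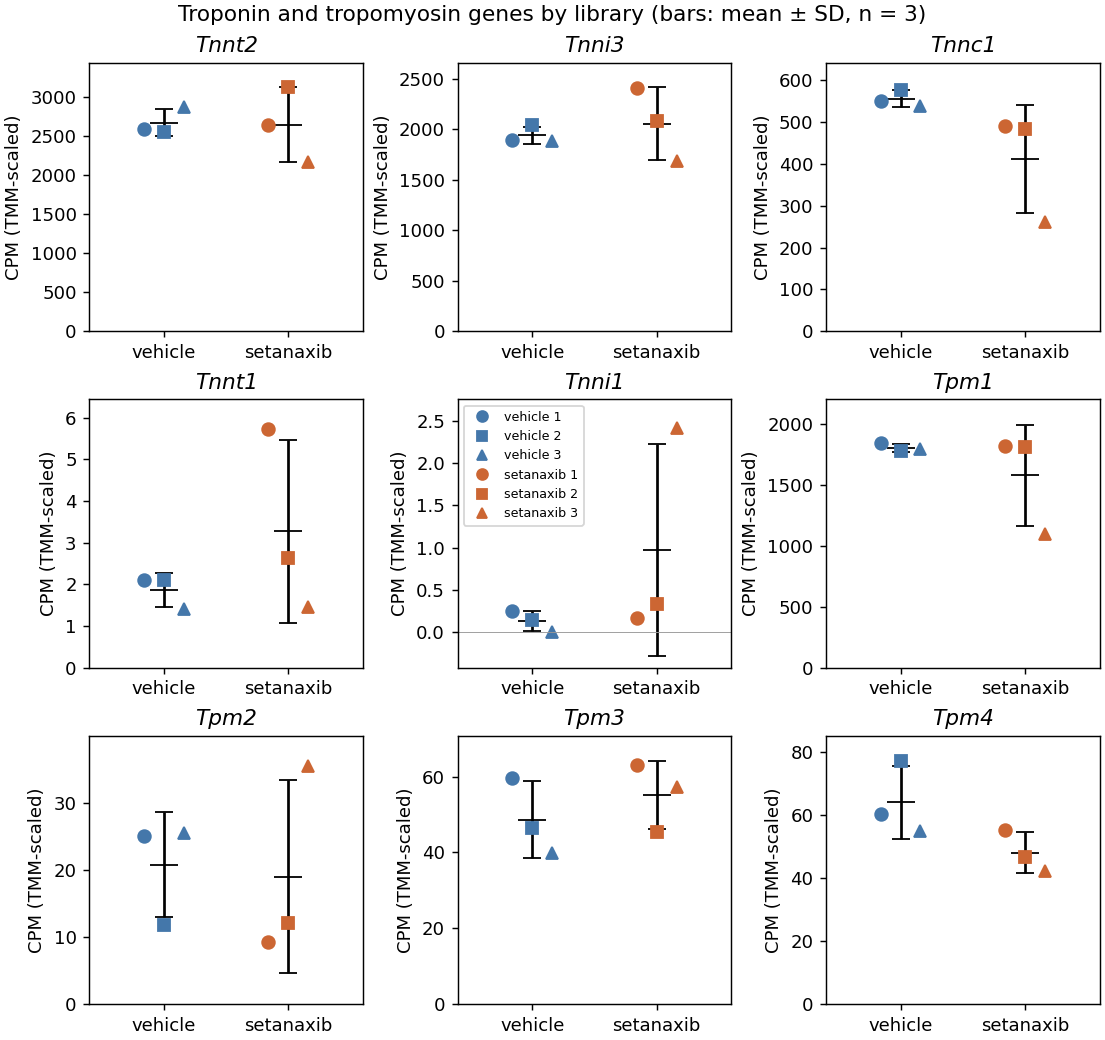
Levels of the 9 genes in each library (vertical axes: CPM with TMM scaling; horizontal: vehicle in blue, setanaxib in orange; circle, square and triangle are replicates 1, 2 and 3; bars are mean ± SD, n = 3). Setanaxib replicate 3 is the lowest library for 5 genes and the highest for 2.

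Per kilobase of transcript, the members fell into tiers. With vehicle, Tnnt2 averaged 2419 ± 159 CPM per kb (SD, n = 3) and Tnni3 2125 ± 96.3, followed by Tpm1 at 1098 ± 20.9 and Tnnc1 at 771 ± 28.2. Far lower stood Tpm4 at 30.2 ± 5.44, Tpm3 at 22.2 ± 4.62, Tpm2 at 9.90 ± 3.72, Tnnt1 at 2.00 ± 0.431 and Tnni1 at 0.121 ± 0.116. Among neighbours in this order, Tpm4 (25.8 to 36.3 CPM per kb) and Tpm3 (18.2 to 27.3) overlapped with vehicle. With setanaxib the ranges of 5 of the neighbouring pairs overlapped: Tnnt2 (1967 to 2837) with Tnni3 (1842 to 2641), Tpm1 (668 to 1109) with Tnnc1 (363 to 681), Tpm4 (19.9 to 26.1) with Tpm3 (20.7 to 28.8), Tpm2 (4.41 to 16.9) with Tnnt1 (1.57 to 6.14), and Tnnt1 with Tnni1 (0.152 to 2.33). The mean of Tpm3 (25.2) was then above that of Tpm4 (22.6). The lengths are the median of each gene's coding transcripts in the GENCODE annotation of GRCm38. With the length of all exons merged, the top 4 came in the order Tnni3, Tnnc1, Tnnt2 and Tpm1, while the other 5 kept their order, so the order within the top tier depends on the length used.

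Of the 5 members lowest in setanaxib replicate 3, Tnnc1 and Tpm1 stood farthest below the other libraries, and the 2 members highest there were Tnni1 and Tpm2. The 250 bases before the start of these 4 genes are shown to set the pairs beside each other, from RefSeq on GRCm38.p6, 5′ to 3′ on the gene's strand, with motif matches in capitals: Tnnc1 at chr14:31208062-31208311 on the plus strand, Tpm1 at chr9:67049214-67049463 on the minus strand, Tnni1 at chr1:135799171-135799420 on the plus strand and Tpm2 at chr4:43523555-43523804 on the minus strand.
Tnnc1: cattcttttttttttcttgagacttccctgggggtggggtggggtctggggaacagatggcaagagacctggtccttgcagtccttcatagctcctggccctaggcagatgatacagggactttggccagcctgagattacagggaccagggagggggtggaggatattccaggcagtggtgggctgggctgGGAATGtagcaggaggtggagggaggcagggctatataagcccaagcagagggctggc
Tpm1: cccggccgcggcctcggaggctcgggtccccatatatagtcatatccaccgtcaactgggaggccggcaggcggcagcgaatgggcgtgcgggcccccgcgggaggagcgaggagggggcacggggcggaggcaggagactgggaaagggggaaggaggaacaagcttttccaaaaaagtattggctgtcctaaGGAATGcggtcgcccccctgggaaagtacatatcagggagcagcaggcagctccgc
Tnni1: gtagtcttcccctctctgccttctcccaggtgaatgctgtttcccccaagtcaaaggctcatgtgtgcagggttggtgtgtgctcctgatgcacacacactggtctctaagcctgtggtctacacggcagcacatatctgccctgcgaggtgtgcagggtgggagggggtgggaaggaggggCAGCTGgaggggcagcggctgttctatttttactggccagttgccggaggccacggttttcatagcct
Tpm2: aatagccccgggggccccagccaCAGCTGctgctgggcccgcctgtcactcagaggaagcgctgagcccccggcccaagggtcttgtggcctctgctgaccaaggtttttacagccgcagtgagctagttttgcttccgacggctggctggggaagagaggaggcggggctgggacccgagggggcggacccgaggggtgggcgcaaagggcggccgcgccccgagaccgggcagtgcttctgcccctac
The capitals mark an MCAT element (CATTCC or its reverse complement, a site form bound by TEAD factors) that begins 58 bases before the start in Tnnc1 and 56 bases before it in Tpm1. In Tnni1 and Tpm2 they mark an E-box (CAGCTG, a form bound by basic helix-loop-helix factors) 68 and 227 bases before the start. All 9 members had at least 1 window of this length, 12 in all, and both strands were searched for 6 motifs, of which the TATA box can lie inside a MEF2 or a CArG match. MCAT matched 3 of the 12 windows (1 of Tnnt2 as well, 27 bases before its start) and 12.6% of 32851 RefSeq windows. The E-box matched 5 of the 12, in 4 members (Tnnt2, Tnni1 with 2 overlapping windows that hold the same site, Tpm2 and Tpm3), and 13% of all windows. The letters AGATAA, a form that GATA factors bind, matched 2 of the 12 (Tnnt2 and Tpm3) and 9.99% of all windows. A TATA box, written as TATAAA, matched 1 of the 12 (Tnnt1, 30 bases before its start) and 12.4% of all windows. The MEF2 and CArG motifs matched 0 of the 12, beside 2.92% and 1.47% of windows. Tnnt2, also lowest in setanaxib replicate 3, thus held MCAT and the E-box, while Tnni3 and Tpm4, lowest there too, matched none of the 6 motifs. Tpm3, with an E-box, was highest in setanaxib replicate 1. The 4 genes shown were picked by their level in 1 library, so the matches cannot test a link between a motif and that level. A match is a run of letters only; binding was not measured.

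Tnnt2, cardiac troponin T, measured 2586, 2556 and 2874 CPM in the vehicle libraries (replicates 1, 2 and 3, here and in every such list) versus 2637, 3134 and 2172 CPM in the setanaxib libraries. The groups overlapped, and setanaxib held both the highest and the lowest library. The means were 2672 ± 175 CPM (SD, n = 3) and 2648 ± 481 CPM, with a log2 fold change of -0.01 (SE 0.16, 95% interval -0.40 to 0.37, edgeR adjusted p = 0.993). The interval bounds how far the means could differ in either direction and does not show that they are equal.

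Tnni3, the inhibitory subunit of the adult heart and the member that beta-adrenergic signalling phosphorylates, gave 1890, 2039 and 1884 CPM under vehicle versus 2409, 2077 and 1680 CPM under setanaxib. Setanaxib replicates 1 and 2 were above every vehicle library and replicate 3 was below every one. The log2 fold change was 0.09 (SE 0.15, 95% interval -0.28 to 0.46, edgeR adjusted p = 0.931), and -0.05 without setanaxib replicate 1. Exons of Tnni3 share 86 bases with Dnaaf3 on the same strand, so a small part of its reads could be assigned to either gene.

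Tnnc1, the calcium-binding subunit, stood at 550.3, 578 and 539 CPM under vehicle versus 491, 483 and 262 CPM under setanaxib. Every setanaxib library was below every vehicle library, with replicate 3 far below the other 2. The means were 556 ± 20.4 and 412 ± 130 CPM (SD, n = 3), a log2 fold change of -0.43 (SE 0.24, 95% interval -1.02 to 0.16, edgeR adjusted p = 0.699). Without setanaxib replicate 3 the fold change was smaller, -0.19 (SE 0.06), and the groups still did not overlap (unadjusted p = 0.0322, edgeR adjusted p = 0.332). With that library left out, 3 members were at an unadjusted p under 0.05, Tnnc1 and Tpm2 lower and Tnnt1 higher, and 0 were called by edgeR; of all genes, 13.6% were at that p (7.91% lower, 5.67% higher) and 0.00479% were called. Groups then did not overlap for 3 members, Tnnc1 lower and Tnni3 and Tnnt1 higher, beside 33.8% of all genes (18% lower, 15.8% higher). Nisch lies over Tnnc1 on the opposite strand, but their exons share 0 bases.

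Ratios between subunits within a library do not depend on library scaling. The log2 ratio of Tnni3 to Tnnc1 counts was 1.78, 1.82 and 1.81 with vehicle, a nearly fixed proportion, and 2.29, 2.10 and 2.68 with setanaxib. Every setanaxib library was above every vehicle library, and the means were 1.80 ± 0.0193 and 2.36 ± 0.295 (SD, n = 3), a difference of 0.56. The exact two-sided permutation test over 20 splits gave p = 0.1, the smallest it can give with 3 against 3, and 0.4 after Benjamini-Hochberg adjustment over 8 ratios. The Tnnt2 to Tnnc1 ratio was 2.23, 2.14 and 2.42 with vehicle and 2.43, 2.70 and 3.05 with setanaxib, a difference of 0.46 (exact permutation p = 0.1, adjusted 0.4) in which setanaxib replicate 1 and vehicle replicate 3 nearly touched. Without setanaxib replicate 3 these differences were 0.40 and 0.30. Between Tnnt2 and Tnni3 the log2 ratio was 0.45, 0.33 and 0.61 with vehicle and 0.13, 0.59 and 0.37 with setanaxib, which overlap (difference -0.10, exact permutation p = 0.6, adjusted 0.8). The 2 ratios that separated the libraries by group share Tnnc1 as their denominator, so they are not separate observations. Tnnc1 levels alone also separated the groups, as those of 17.6% of all genes did. With 3 against 3 libraries this permutation test cannot reach a p under 0.05.

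**Figure D2:**
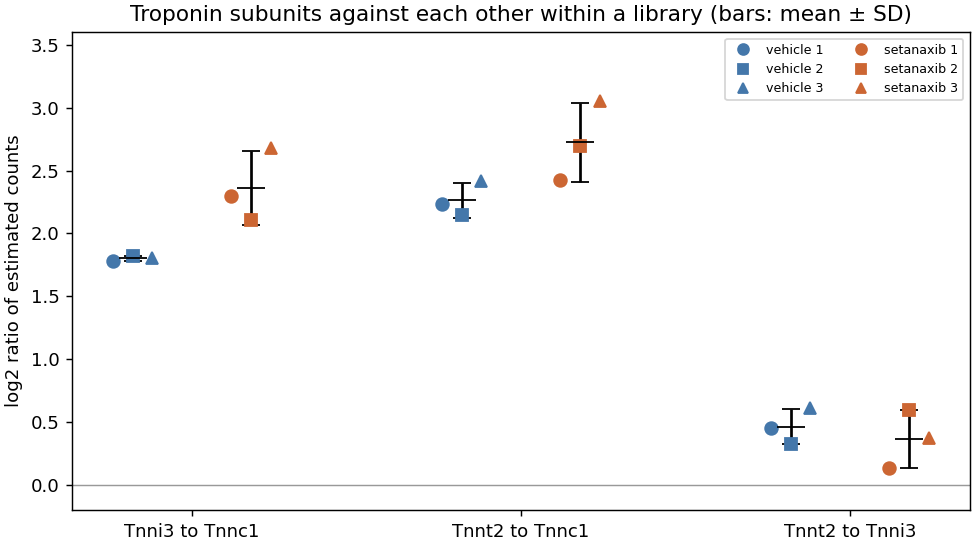
Log2 ratio of the estimated counts of 2 troponin subunits in each library (vertical axis, no unit; vehicle in blue, setanaxib in orange; bars are mean ± SD, n = 3). Tnni3 to Tnnc1 lies between 1.78 and 1.82 with vehicle and between 2.10 and 2.68 with setanaxib, while Tnnt2 to Tnni3 overlaps.

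Tnni1, the fetal and slow skeletal troponin I, was at the limit of what these libraries hold. It read 0.239, 0.137 and 0 CPM with vehicle (29, 20 and 0 estimated counts) and 0.157, 0.327 and 2.42 CPM with setanaxib (20, 43 and 319 estimated counts). Vehicle replicate 3 is listed at 0, where 3 counts would be 0.0221 CPM, and setanaxib replicate 3 held more than the other 5 libraries together, while the groups overlapped. The fitted log2 fold change of 2.95 had an SE of 1.54 (95% interval -0.78 to 6.67, edgeR adjusted p = 0.68) and was 0.95 (SE 1.48) without setanaxib replicate 3, so it rests on that library. The same library had the highest atrial markers, among them the atrial light chain Myl7. It read 637 CPM of Myl7, where the other 5 had 0.103 to 23.3 CPM, while its skeletal muscle markers summed to 0.599 CPM. Tnni1 and atrial markers did not share their order throughout the other 5. Vehicle replicate 3 had the next highest atrial sum (657 CPM) and Tnni1 at 0. Setanaxib replicate 2, with Myl7 at 1.33 CPM, held 43 Tnni1 counts, and vehicle replicate 1, with Myl7 at 23.3 CPM, held 29. The part of atrial tissue in the Tnni1 level was not tested.

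Tnnt1, slow skeletal troponin T, measured 2.09, 2.11 and 1.40 CPM under vehicle versus 5.73, 2.62 and 1.46 CPM under setanaxib. Setanaxib replicates 1 and 2 were above all vehicle libraries and replicate 3 was among them. Means were 1.87 ± 0.402 and 3.27 ± 2.21 CPM (SD, n = 3), with a log2 fold change of 0.81 (SE 0.50, 95% interval -0.41 to 2.02, edgeR adjusted p = 0.727). The value was 0.12 without setanaxib replicate 1 and 1.17 (SE 0.38, unadjusted p = 0.0266, edgeR adjusted p = 0.316) without setanaxib replicate 3. The slow skeletal isoforms Tnnt1 and Tnni1 thus peaked in different libraries.

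Each slow isoform remained a trace beside its adult counterpart. The log2 ratio of Tnnt1 to Tnnt2 counts was -10.27, -10.24 and -11.00 with vehicle and -8.85, -10.22 and -10.53 with setanaxib (difference 0.64, exact permutation p = 0.4, adjusted 0.64). Tnni1 to Tnni3 was -12.95 and -13.86 in vehicle replicates 1 and 2 and -13.90, -12.63 and -9.44 with setanaxib (difference 1.41, exact permutation p = 0.7, adjusted 0.8), with vehicle replicate 3 dropped because its Tnni1 count is 0. With 1 added to both counts, which keeps all 6 libraries, that difference was 2.93 (exact permutation p = 0.3). On GRCm38, Tnni1 and Tnnt2 lie on chromosome 1 with 1 gene (Lad1) between them, and Tnnt1 and Tnni3 are direct neighbours on chromosome 7. Tnnt1 was highest in setanaxib replicate 1, as its neighbour Tnni3 was, whereas Tnni1 was highest in the library where Tnnt2 was lowest.

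Tpm1, the tropomyosin of heart muscle, was the steadiest member with vehicle, at 1840, 1773 and 1794 CPM, and read 1821, 1812 and 1097 CPM with setanaxib. Setanaxib replicates 1 and 2 fell inside the vehicle range and replicate 3 well below it, so the coefficient of variation was 1.89% with vehicle and 26.4% with setanaxib. The log2 fold change was -0.19 (SE 0.21, 95% interval -0.70 to 0.31, edgeR adjusted p = 0.867), and 0.02 (SE 0.06) without setanaxib replicate 3. Actc1, the cardiac actin on which this tropomyosin lies, was also lowest in that library, with 8489, 9457 and 8125 CPM under vehicle versus 7882, 7946 and 3860 CPM under setanaxib.

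Tpm2 gave 25.1, 11.8 and 25.5 CPM under vehicle versus 9.25, 12.1 and 35.5 CPM under setanaxib. The libraries fell into 3 near 12 CPM or below and 3 above 25 CPM, and each level held libraries of both groups. The log2 fold change was -0.13 (SE 0.57, 95% interval -1.50 to 1.24, edgeR adjusted p = 0.977). Leaving out a library moved it from -0.96 (SE 0.38, unadjusted p = 0.0484, edgeR adjusted p = 0.368, without setanaxib replicate 3) to 0.19 (without setanaxib replicate 1). Myl7 stood at 23.3, 0.103 and 21.4 CPM under vehicle versus 0.605, 1.33 and 637 CPM under setanaxib, above 20 CPM in the same 3 libraries that had the higher Tpm2. Myh11, the smooth muscle myosin, was also highest in those 3, with 32.9, 12.7 and 28.1 CPM under vehicle versus 23.2, 16.9 and 27.3 CPM under setanaxib. Of 7 smooth muscle markers, 5 had the same 3 highest libraries as Tpm2 (Myh11, Tagln, Cnn1, Lmod1 and Actg2). The list's sum was lowest in setanaxib replicate 3 (226 CPM), where Acta2, its most abundant gene in most libraries, was at 67.8 CPM. The part of atrial or vessel tissue in the Tpm2 level was not tested.

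**Figure D3:**
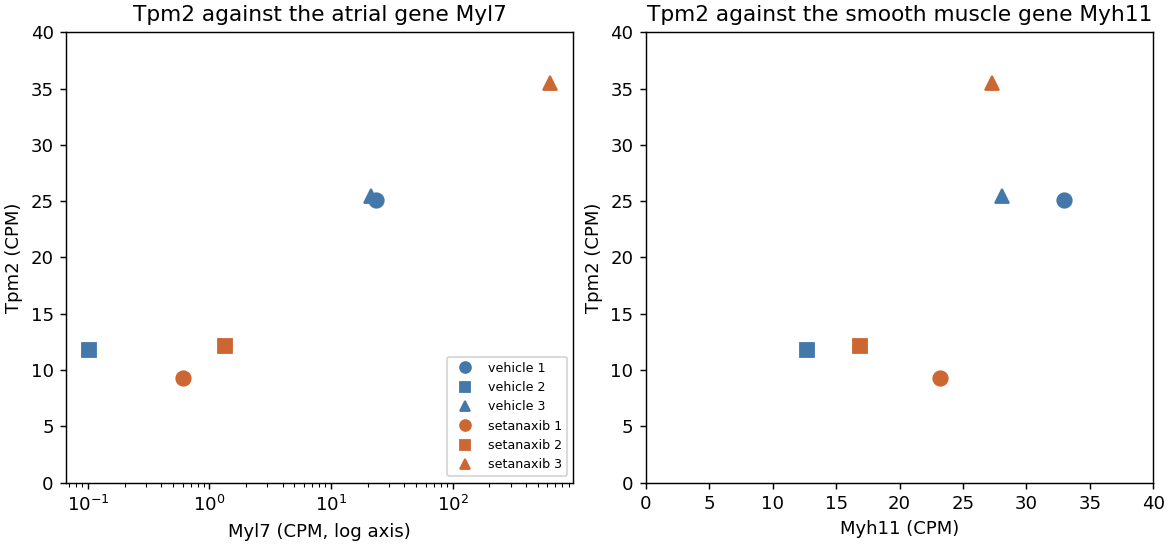
Tpm2 level (vertical axes, CPM) against Myl7 (left, CPM on a log axis) and Myh11 (right, CPM), 1 point per library (vehicle in blue, setanaxib in orange). The 3 libraries with Tpm2 above 25 CPM are vehicle replicates 1 and 3 and setanaxib replicate 3, which also have Myl7 above 20 CPM.

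Tpm3 measured 59.8, 46.4 and 39.9 CPM under vehicle versus 63.1, 45.4 and 57.3 CPM under setanaxib. The groups overlapped, with a log2 fold change of 0.18 (SE 0.19, 95% interval -0.28 to 0.64, edgeR adjusted p = 0.859). The annotation holds a near-identical copy as a gene of its own, Tpm3-rs7, which aligned to a Tpm3 transcript over 2108 bases with 99.1% identity and 19 differences, 3 of them in the 744 coding bases. Of 1959 windows of 150 bases, the length of a read here, 662 (33.8%) are the same in both. A read from such a window cannot be assigned by its own sequence. Reads were paired, and a mate that covers a difference could assign it, which was not counted. The first 150 coding bases hold all 3 coding differences, marked in capitals, and are shown because they are the part of the coding sequence that tells the copies apart (GENCODE transcript sequences on GRCm38, written with T).
Tpm3: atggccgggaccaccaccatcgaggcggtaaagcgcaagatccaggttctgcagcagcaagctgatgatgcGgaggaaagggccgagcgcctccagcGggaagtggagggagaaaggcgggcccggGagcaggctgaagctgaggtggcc
Tpm3-rs7: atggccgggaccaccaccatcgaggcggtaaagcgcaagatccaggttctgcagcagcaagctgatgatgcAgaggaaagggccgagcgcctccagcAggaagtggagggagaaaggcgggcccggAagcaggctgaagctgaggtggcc
Tpm3-rs7 gave 4.64, 25.2 and 18 CPM under vehicle versus 2.83, 4.42 and 1.48 CPM under setanaxib. Every setanaxib library was below every vehicle library, as for 9.46% of all genes, and vehicle replicate 1 was close to setanaxib replicate 2. The log2 fold change was -2.46 (SE 0.69, unadjusted p = 0.0107); edgeR (adjusted p = 0.444) and limma-voom (0.467) did not call it, DESeq2 did (adjusted p = 0.00694). Vehicle replicate 1, with the least of the copy in its group, had the most of Tpm3, but vehicle replicate 3 had less of both than replicate 2. With setanaxib, replicate 2 had the most of the copy and the least of Tpm3. Replicate 3 had the least of the copy but not the most of Tpm3. Summed over both genes, the levels were 64.4, 71.6 and 57.9 CPM with vehicle and 65.9, 49.8 and 58.8 CPM with setanaxib, and the log2 fold change was -0.15 (SE 0.14, edgeR adjusted p = 0.827), of the opposite sign to that of Tpm3 alone. This sum was added after seeing the data. How reads were divided between the copies was not tested, and the direction of Tpm3 is therefore not settled by these counts.

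**Figure D4:**
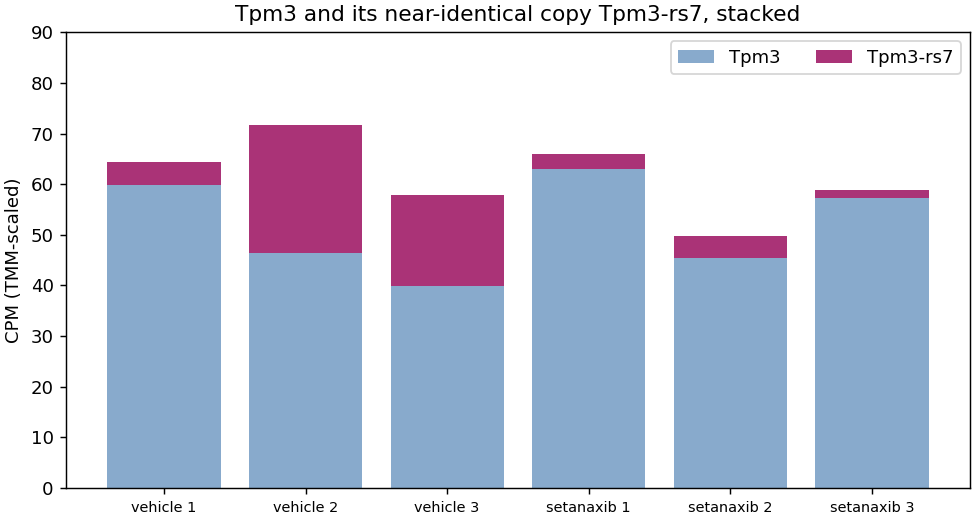
Stacked levels of Tpm3 (blue) and its near-identical copy Tpm3-rs7 (purple) in each library (vertical axis, CPM with TMM scaling). The copy adds 4.64 to 25.2 CPM with vehicle and 1.48 to 4.42 CPM with setanaxib.

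Tpm4, which gives a cytoskeletal tropomyosin in most cells, stood at 60.4, 77.2 and 54.9 CPM under vehicle versus 55.4, 46.7 and 42.4 CPM under setanaxib. Only setanaxib replicate 1 reached the vehicle range, by a margin of less than 1 CPM over vehicle replicate 3. The means were 64.2 ± 11.6 and 48.2 ± 6.67 CPM (SD, n = 3), a log2 fold change of -0.41 (SE 0.16, 95% interval -0.81 to -0.02). Its unadjusted p of 0.0435 became an edgeR adjusted p of 0.577 over all genes (0.339 by DESeq2 and 0.499 by limma-voom). Without vehicle replicate 2 the fold change was -0.26 (unadjusted p = 0.139, edgeR adjusted p = 0.999). The unadjusted p was also above 0.05 without vehicle replicate 1 (0.0689), setanaxib replicate 2 (0.11) or setanaxib replicate 3 (0.115). Fibroblast and macrophage markers were also lower: 8 of 8 fibroblast markers had a fold change below 0, 5 of them at an unadjusted p under 0.05. For macrophages 7 of 8 markers were below 0, with 7 at that p. Of all genes, 48.4% were below 0 and 4.69% were lower at that p. No marker of either list was at 0 in all libraries. Fibroblast sums were 1413, 1062 and 1415 CPM under vehicle versus 624, 830 and 1055 CPM under setanaxib. Within each group they ran in the opposite order to Tpm4. Macrophage sums followed the order of Tpm4 under vehicle (319, 400 and 309 CPM). Under setanaxib (198, 251 and 229 CPM) they were lowest in replicate 1, where Tpm4 was highest. For endothelium 4 of 5 markers were below 0, with 0 at an unadjusted p under 0.05. Endothelial sums were 627, 693 and 605 CPM under vehicle, in the order of Tpm4, versus 489, 601 and 554 CPM under setanaxib, lowest in replicate 1. Smooth muscle had 3 of 7 markers below 0 and red blood cells 0 of 5. The part of these cells in the Tpm4 level was not tested. A copy of Tpm4, Gm7809, with 96.8% identity over 743 bases, held 71 to 136 estimated counts per library, beside 5582 to 11271 for Tpm4, and an exon of Gm26586 on the opposite strand shares 134 bases with it.

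Against Tpm1 in the same library, the minor tropomyosins had ratios that overlapped between the groups. By the exact permutation test, the differences in log2 ratio were -0.08 for Tpm2 (p = 1), 0.42 for Tpm3 (p = 0.3, adjusted 0.64) and -0.18 for Tpm4 (p = 0.4, adjusted 0.64). For Tpm3 the highest ratio, -4.26, was in setanaxib replicate 3, where Tpm1 was lowest.

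**Figure D5:**
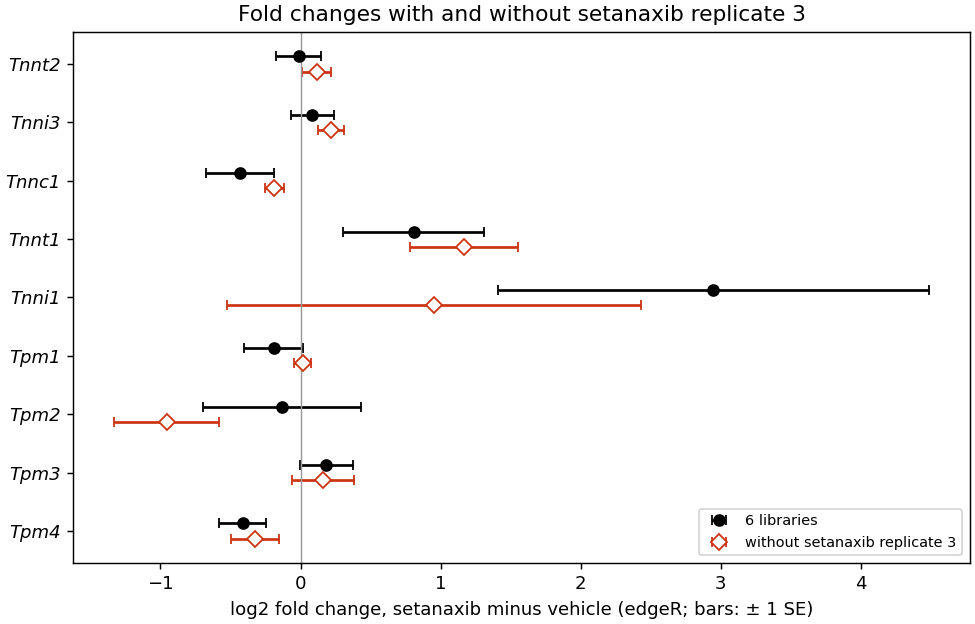
Log2 fold change of each gene, setanaxib minus vehicle (horizontal axis; bars are ± 1 SE from edgeR), for all 6 libraries (black) and without setanaxib replicate 3 (red). Without that library Tnnc1 moves from -0.43 to -0.19, Tpm1 from -0.19 to 0.02 and Tpm2 from -0.13 to -0.96.

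The other genes of the contractile filaments were counted as lists. These lists were chosen with earlier results of these data known, so their counts are a description. Among 16 other thin filament genes, 6 had a fold change above 0 and 10 below it, with a median log2 fold change of -0.10, and 0 were called by edgeR or DESeq2. At an unadjusted p under 0.05 there was 1, Acta1, the skeletal actin that the fetal and strained heart also makes, with 608, 622 and 483 CPM under vehicle versus 139, 137 and 10.7 CPM under setanaxib (log2 fold change -2.58, SE 0.86, edgeR adjusted p = 0.498). Groups did not overlap for 5 of the 16, 3 of them lower (Acta1, Actc1 and Tmod3) and 2 higher (Tmod1 and Nebl), beside 17.6% of all genes (9.46% lower, 8.11% higher). Lmod3, a nucleator of actin filaments, had a log2 fold change of -0.38 (SE 0.20) and Tmod1, which caps their pointed end, 0.15 (SE 0.08). Of the fast skeletal troponins, Tnni2 passed the filter (log2 fold change 0.17, SE 1.31), Tnnt3 held 18 estimated counts in vehicle replicate 3 alone, and Tnnc2 was at 0 in all 6 libraries.

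Thick filament genes and the enzymes that act on thin filament proteins had medians near 0. Of 14 thick filament genes, 6 were above 0 and 8 below (median log2 fold change -0.02), and 3 had groups that did not overlap, all lower (9.46% of all genes did so). Myh7b, a myosin heavy chain gene, was at -0.76 (SE 0.16, edgeR adjusted p = 0.330) and was the member of this list that DESeq2 called (adjusted p = 0.00286). Mybpc3, the cardiac myosin-binding protein, was at -0.40 (SE 0.17) and Mylk3, the kinase of the cardiac light chain, at 0.17 (SE 0.10). Of 13 kinases and phosphatases, 7 were above 0 and 6 below (median 0.03), and Pak1, a kinase, was at -1.38 (SE 0.25, edgeR adjusted p = 0.287), which DESeq2 called. Dapk3 and Ppp2r5a were at -0.20 (SE 0.11) and 0.09 (SE 0.08).

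The fetal and stress genes of heart muscle mostly lay below 0, with no edgeR call among them. Of 8, 7 had a fold change below 0 (median -1.06), 5 at an unadjusted p under 0.05, and 3 were called by DESeq2 and 0 by edgeR, where 4.69% of all genes were lower at that p and 2.43% were called by DESeq2. Groups did not overlap for 6 of the 8, all lower, beside 9.46% of all genes. The list was chosen with earlier results of these data known, so these counts and shares are a description and no test of it. The 3 with the smallest p were Nppb at -1.92 (SE 0.28, edgeR adjusted p = 0.234), Ankrd1 at -1.46 (SE 0.36, 0.395) and Rcan1 at -1.13 (SE 0.30, 0.427). Tnni1, the fetal troponin I, had a fold change above 0, with the wide interval given for it.

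The genes most like a member across libraries were taken by Pearson correlation of log2 CPM over 6 libraries, which share their depth and scaling, as a description. For Tnni3 they were Tnpo1 (r = 0.999), Nrbp1, Nr4a3, Psmd3 and Nipa2 (r = 0.992). For Tpm2 they were Antxr1 (r = 0.997), Nckap5l, Eln, Glis2 and Ltbp3 (r = 0.988). Eln, which encodes elastin, measured 65.1, 36.0 and 64.4 CPM under vehicle versus 24.8, 37.3 and 88.6 CPM under setanaxib, and so was highest in the library where Tpm2 was highest. For Tnni1 they were Nr1i3 (r = 0.991), Imp3, Ing5, Txndc16 and Slc16a7 (r = 0.962). Tnni1 had 0 estimated counts in vehicle replicate 3, 319 in setanaxib replicate 3 and 20 to 43 in the other libraries. Its r values therefore rest largely on those extreme libraries.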

How the data were processed

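RNA sequencing of 6 mouse heart libraries (3 vehicle, 3 setanaxib) was used, read as paired ends of 150 bases from 1 µg of total RNA per the labels' protocols. As deposited, each gene has estimated counts, whole as the authors wrote them and not scaled between libraries; the design had assumed raw counts, and the count tests were kept for these estimates with no rounding needed. The tools listed per the submitters' processing notes are STAR 2.5.4b, featureCounts 2.0.1, DESeq2 1.42.0 and FastQC 0.11.9, on GRCm39, with no step assigned to a tool; per the file headers, names look like those of StringTie's count script. Whether counting used strand is not given in the sources, and reads of near-identical copies and overlapping genes may be split or counted at either.

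In R 4.3.3, genes were kept by edgeR's (4.0.16) filterByExpr (minimum count 10; 20472 genes), scaled by TMM (factors 0.892 to 1.19) and tested by the quasi-likelihood F test, two-sided, with Benjamini-Hochberg adjustment over all genes. Standard errors and intervals came from that F statistic. DESeq2 1.42.0, limma-voom (limma 3.58.1), other scalings, no filter and leaving out each library were alternatives. The fits were tested on simulated data. Log2 ratios within a library were tested by exact permutation. No 2 libraries of a group matched within sampling noise (chi-square per degree of freedom at least 41.5). At these depths 3 counts are 0.0205 to 0.0247 CPM, and the spread between libraries limits the comparisons. GENCODE and RefSeq tables on GRCm38 gave lengths, overlaps, neighbours and sequences, as the files' GRCm39 was not used here; all 9 member IDs had the same symbol there.

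The rule for the members uses symbols only, but this gene family, the gene lists and the tests were chosen with earlier results of these data known. Every member was named, the 5 genes most like Tnni3, Tnni1 and Tpm2 (average log2 CPM of at least 3, no predicted genes), and the 3 genes with the smallest p from each list. Tpm3-rs7, Myl7, Myh11, Actc1, Tmod3, Nebl and Gm7809 fall outside this rule and were chosen after their values were seen. Sln and Bmp10 of the atrial list were not analysed here.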

Additional observations from a re-analysis of the deposited data

How the results depend on the processing

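No paired analysis was possible because the titles carry no replicate number shared between the groups. No member was called under any of the alternatives run, and over the alternatives 110 fold changes of members and of Tpm3-rs7 kept their direction and side of the threshold, 10 turned and 1 gained a call. Those that turned were Tnnt2, at 0.02 with upper quartile factors, 0.04 without vehicle replicate 3 and 0.11 without setanaxib replicate 3; Tnni3, at -0.05 without setanaxib replicate 1 (0.22 at most, without setanaxib replicate 3); Tpm1, at 0.02 without setanaxib replicate 3 (-0.31 at least, without setanaxib replicate 1); Tpm2, at 0.02 without vehicle replicate 1, 0.04 without vehicle replicate 3, 0.19 without setanaxib replicate 1 and 0.11 without setanaxib replicate 2 (-0.96 at least, without setanaxib replicate 3); and Tpm3, at -0.15 when summed with Tpm3-rs7, an alternative chosen after seeing the data. Tpm3-rs7 itself, at -2.46 in DESeq2, was called there and in no edgeR fit. The number of members at an unadjusted p under 0.05 was 1, became 0 with upper quartile factors, and ran from 0 to 3 with 1 library left out. The number lower with setanaxib was 5, 4 with upper quartile factors, and 3 to 5 with 1 library left out. The number whose groups did not overlap ran from 1 to 3. Shares of all genes were taken only with all 6 libraries and without setanaxib replicate 3. They were 8.46% and 13.6% at an unadjusted edgeR p under 0.05, and 17.6% and 33.8% for groups that did not overlap. The higher counts without setanaxib replicate 3 stand beside higher shares of all genes and are not read as a result about the members. With any other library left out no such share was taken, so higher counts there cannot be read either. Among ratios, Tpm2 to Tpm1 turned from -0.08 to 0.09 and 0.12 without vehicle replicate 1 or 3 and to 0.44 and 0.24 without setanaxib replicate 1 or 2, and Tnnt2 to Tnni3 turned from -0.10 to 0.02 without setanaxib replicate 1. With 1 library left out, the differences ran from 0.40 to 0.69 for Tnni3 to Tnnc1, 0.30 to 0.61 for Tnnt2 to Tnnc1, 0.14 to 2.37 for Tnni1 to Tnni3, 0.13 to 0.97 for Tnnt1 to Tnnt2, -0.90 to 0.44 for Tpm2 to Tpm1, 0.14 to 0.67 for Tpm3 to Tpm1, -0.33 to -0.03 for Tpm4 to Tpm1 and -0.21 to 0.02 for Tnnt2 to Tnni3. The cause of these changes was not tested.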
